A study of Homo sapiens with 5 samples.

Results

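The genes of the proteasome were examined for promoter peaks of 3 transcription factors in LM2 cells, a lung-metastatic derivative of the human breast cancer line MDA-MB-231. Members were protein-coding genes on chromosomes 1 to 22 and X whose symbols begin with PSMA, PSMB, PSMC, PSMD, PSME or PSMF followed by a number. This rule found 46 genes, none of them a readthrough gene, of 20098 protein-coding genes in all. PSMC3IP and PSME3IP1, which are named after partner proteins and are not proteasome subunits, were set apart. The 44 genes left were set against 20054 further protein-coding genes.

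ChIP-Seq peak lists were used for Fra-1 (FOSL1), MYC and E2F1, with 1 library per factor from formaldehyde-fixed LM2 cells and 1 common input library. The labels call the cells untreated, while a legend in the study's supplement mentions lysates of control-vector and shRNA cells in connection with ChIP-Seq. LM2 is a single cell line, so the lists describe this line only. EZH2 and input samples belong to the same series, and peak lists for them were not used here. With no replicates, no test of a difference was possible: counts of genes are given beside the share of other coding genes, and neither shows how far a second library would differ.

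The proteasome is the cell's main protease for ubiquitin-tagged proteins. Its 20S core is a barrel of outer alpha rings and inner beta rings that carry the cutting sites, and the 19S cap binds tagged proteins, removes the ubiquitin, unfolds them and threads them in. Dividing and cancer cells rely on a steady supply of every subunit, and NFE2L1 is known for raising subunit genes together when proteasome activity falls. MYC and E2F1 are factors of growth and the cell cycle, and Fra-1 is an AP-1 subunit linked to invasion.

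A gene was taken to have a promoter peak when a peak overlapped the window from 2 kb upstream to 2.5 kb downstream of any of its transcription start sites (TSS). The whole lists held 4867 MYC, 36933 E2F1 and 17320 Fra-1 peaks, called from 12931227 to 23853621 tags per library, so peak strengths were compared within a factor and not between factors. Strength is given as fold enrichment, the fragment pileup at the summit over the local background, and −log10 q is the peak caller's adjusted significance for that library. In the member windows lay 18 MYC, 66 E2F1 and 8 Fra-1 peaks. Of these, 7 MYC, 27 E2F1 and 1 Fra-1 peaks also lay in the window of another coding gene, which is not named each time.

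E2F1 was found at nearly every proteasome gene, MYC at a minority and Fra-1 at few. An E2F1 promoter peak was present in 40 of 44 members (90.9%), against 61.2% of the other coding genes. A MYC promoter peak was present in 17 of 44 (38.6%), against 17.8%. For Fra-1 the count was 7 of 44 (15.9%), against 13.2%, so the Fra-1 share lay near that of coding genes at large. The other coding genes were not matched to the members by expression in LM2 cells, which was not used here.

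The MYC count fell under a stricter q, and the MYC and E2F1 counts both fell without peaks shared with windows of other coding genes. Of the 17 genes, 9 (20.5%) kept a MYC peak when −log10 q had to reach 5, against 12.7% of the other genes. When peaks that also fell in the window of another coding gene were left out, 11 members (25%) kept one, against 10.7%. Among the members that lost it, PSMA1 and PSMD9 shared theirs only with an unnamed coding gene. The E2F1 count stayed at 40 under the stricter q, against 60.3% of other genes. Without the peaks shared with windows of other coding genes, it fell to 29 (65.9%), against 44.4%. It was 31 (70.5%) against 25.6% when each list was cut to the number of peaks in the MYC list. The Fra-1 count fell to 2 (4.55%) in these shortened lists, against 3.43%.

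**Figure D1:**
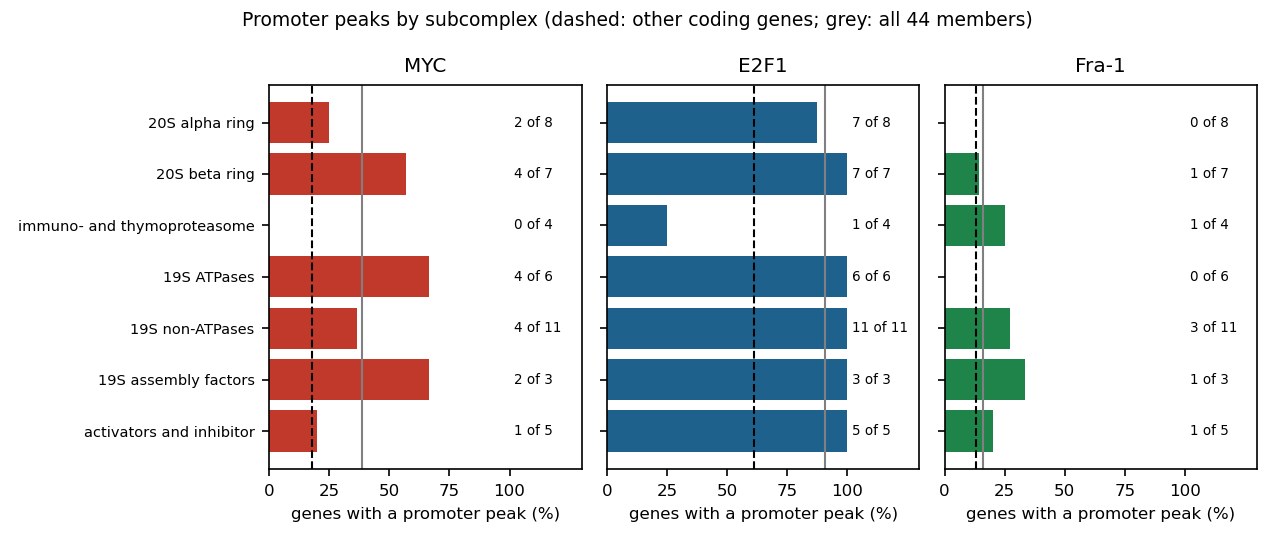
Share of genes with a promoter peak of MYC, E2F1 or Fra-1 (x axis, percent) in each subcomplex (y axis), with the number of genes at the right, the other coding genes as a dashed line and all 44 members as a grey line. E2F1 reached 100% in 5 of 7 subcomplexes, while MYC ranged from 0 of 4 immuno- and thymoproteasome genes to 4 of 6 ATPase genes and 2 of 3 assembly factors.

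Combinations followed the same order. E2F1 alone was found at 19 members (43.2%, against 35.8% of other genes), and MYC with E2F1 but without Fra-1 at 15 (34.1%, against 13.1%). E2F1 with Fra-1 but without MYC was found at 4 members, PSMB7, PSMD1, PSMD2 and PSME4 (9.09%, against 7.66%). Peaks of all 3 factors were found at PSMD14 and PSMD9 (4.55%, against 4.67%), and at 1 of them, PSMD14, with the 3 peaks in 1 place. No peak of any factor was found at PSMA8, PSMB8 and PSMB9 (6.82%, against 37.8%), and PSMB11 had Fra-1 alone. No member had MYC without E2F1, a combination also rare in other genes (0.0449%). Among genes that had an E2F1 peak, MYC was present in 17 of 40 members (42.5%, against 29.0%) and Fra-1 in 6 of 40 (15.0%, against 20.1%).

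The sequences at which a factor's own motif lay within 50 bp of its summit are shown here. They are matches of letters and do not show that the factor was bound at them. Each sequence is 30 bases from the GRCh37 genome on the gene's strand, 5′ to 3′, and capitals mark the motif: CACGTG for MYC, TGACTCA or its reverse complement TGAGTCA for Fra-1, and TTTGGCGC for E2F1.
PSMB3, MYC, chr17:36908744-36908773, plus strand: gtttcaccagccCACGTGcgcgcaggctcc
PSMD9, MYC, chr12:122326553-122326582, plus strand: tcaccacaggcgCACGTGttccggcagggc
PSME3, MYC, chr17:40985360-40985389, plus strand: ggctgcgcagcgCACGTGcacagcctcgca
PSME3, second MYC peak, chr17:40985907-40985936, plus strand: cacctccgcggaCACGTGttggactcaggg
PSMD9, E2F1, chr12:122326659-122326688, plus strand: ggctgtggtgtTTTGGCGCatgggcggagc
PSMB7, Fra-1, chr9:127148623-127148652, minus strand: agagtaaatatgTGACTCAcagaacattgg
PSMD2, Fra-1, chr3:184018296-184018325, plus strand: gggactcattgTGAGTCAcaggaagcctga
PSMD9, Fra-1, chr12:122332025-122332054, plus strand: gtactctcctcTGACTCAtgttaaaaaaaa
PSME4, Fra-1, chr2:54196578-54196607, minus strand: tgaactgagtgaTGACTCAgggttttgtaa

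The motif shares at members were close to those at other genes. CACGTG lay within 50 bp of 4 of 18 MYC summits (22.2%, against 16.2% of MYC peaks in other coding promoters), searched on both strands. TGACTCA lay at 4 of 8 Fra-1 summits (50%, against 49.6%). TTTCCCGC or TTTGGCGC lay at 1 of 66 E2F1 summits (1.52%, against 1.53%). E2F1 summits in proteasome promoters thus rarely held these letters, as did E2F1 summits elsewhere. A match or its absence describes only the letters in the window.

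The alpha ring of the 20S core gates entry to the barrel. E2F1 peaks were present in 7 of its 8 genes, with a median fold enrichment of 32.5 for the strongest peak per gene. The highest was at PSMA4, with a fold enrichment of 49.1 and the summit 6 bp downstream of a TSS, followed by PSMA2 at 44.8 and PSMA1 at 40.2. The PSMA2 peak also lay in the windows of MRPL32 and an unnamed coding gene, and the PSMA1 peak in that of another unnamed one. PSMA6 at 13.1 and PSMA3 at 17.5 were the lowest of the ring, so strength within the ring spanned most of the range of all members.

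MYC was found at only 2 alpha ring genes, and both peaks were modest. At PSMA1 the MYC fold enrichment was 7.31 (−log10 q 7.55), with the summit in an intron 101 bp downstream of a TSS. This peak also lay in the window of an unnamed coding gene. At PSMA4 the MYC fold enrichment was 4.39 (−log10 q 3.09), the weakest strongest-peak value of any MYC-bound member, 108 bp upstream of a TSS. PSMA8, a testis-specific alpha subunit, had no peak of any factor, and the nearest E2F1 summit lay 43300 bp away in the promoter of SS18. No alpha ring gene had a Fra-1 peak.

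The beta ring carries the cutting sites, formed by PSMB5, PSMB6 and PSMB7. All 7 constitutive beta genes had an E2F1 peak, with a median fold enrichment of 36.5 and the highest at PSMB2 (42.6) and PSMB1 (42.3). PSMB7 was the exception, with 17.4. The other 6 lay between 34.2 and 42.6, a narrower spread than in the alpha ring.

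MYC was found at 4 of the 7 beta genes. Its strongest peak there was at the structural subunit gene PSMB3, with a fold enrichment of 9.35 (−log10 q 16.9) and the summit 203 bp upstream of the TSS, where the CACGTG printed above lay 33 bp from the summit. PSMB2 followed with 7.04 (−log10 q 6.46), 7 bp downstream of its TSS. PSMB1 had 5.84 (−log10 q 3.81), in a peak that also lay in the window of the neighbouring gene TBP. PSMB6, the gene of the caspase-like site, had 5.2 (−log10 q 3.55). No MYC peak was called at PSMB5 and PSMB7, which encode the other cutting subunits, or at PSMB4.

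PSMB7, the gene of the trypsin-like site, was the beta gene with Fra-1. Its Fra-1 promoter peak had a fold enrichment of 8.39 and lay in an intron, 1693 bp upstream of an internal TSS and 29093 bp downstream of the canonical one. Outside any promoter window, PSMB7 held a further Fra-1 peak of 28.4 (−log10 q 104.0) in the gene body, 22441 bp from the canonical TSS, together with an E2F1 peak of 12.7. Another Fra-1 peak in the body, of 8.69, lay 3320 bp from the canonical TSS and beside an E2F1 peak of 5.09. PSMB7 was the only member with Fra-1 peaks in its body beyond the promoter windows, and the one at 22441 bp exceeded every Fra-1 promoter peak of the 44 genes.

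The immuno- and thymoproteasome genes encode beta subunits that replace the constitutive cutting subunits. E2F1 was found at PSMB10 alone of these 4, with a fold enrichment of 26.7. PSMB11, expressed in the thymic cortex, had no E2F1 peak, although E2F1 peaks were dense around it, with 24 summits within 100 kb, the nearest 7346 bp away at PSMB5. PSMB11 had instead a Fra-1 peak of 7.6 (−log10 q 7.0), 241 bp upstream of its TSS and without TGACTCA near the summit. No MYC peak was found at any of the 4 genes.

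The absence of peaks at PSMB8 and PSMB9 coincided with a wider gap in the lists. Both genes lie on chromosome 6 between positions 28411449 and 33538874 (hg19), a stretch of 5.13 Mb that holds the major histocompatibility complex and in which no peak of any of the 3 factors was listed. Of its 184 coding genes none had an E2F1 peak, whereas 108 of 169 coding genes in flanks of equal length did. The next largest run of coding genes without E2F1, on chromosome 11, held 71 genes. The lists also held 18 E2F1 peaks on 6 alternative haplotype sequences of chromosome 6, and only reads with a single genomic match had been kept. Absent binding and unplaced reads cannot be told apart here. Without these 2 genes the counts were 40 of 42 for E2F1 (95.2%, against 61.8% of genes outside the stretch) and 17 of 42 for MYC (40.5%, against 18.0%).

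**Figure D2:**
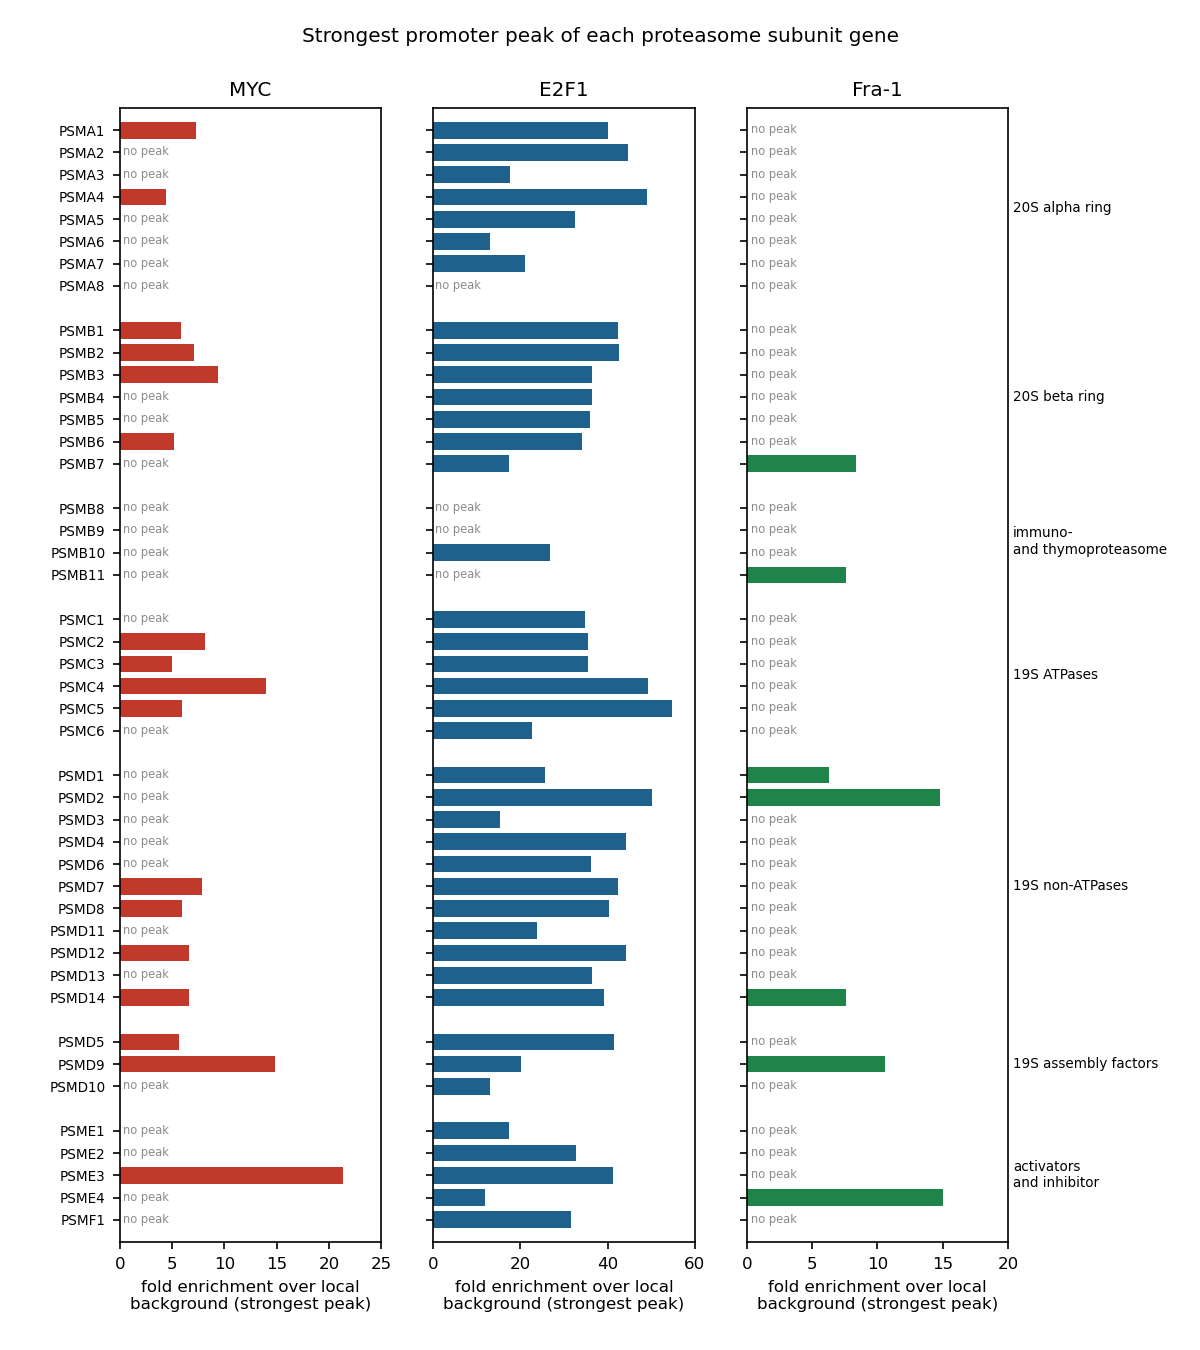
Fold enrichment of the strongest promoter peak (x axis, a separate linear scale for each factor) of MYC, E2F1 and Fra-1 in each of the 44 proteasome genes (y axis), grouped by subcomplex. Bars of E2F1 reached from 11.8 at PSME4 to 54.8 at PSMC5, and the longest MYC bar was that of PSME3 at 21.3.

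The 19S ATPases form the ring that unfolds substrates. All 6 genes had an E2F1 peak, with a median fold enrichment of 35.6, and PSMC5 with 54.8 (−log10 q 153.0) had the highest E2F1 value of all 44 members, its summit 5 bp upstream of a TSS. The PSMC5 peak also lay in the window of the neighbouring gene FTSJ3. PSMC4 followed with 49.2, and PSMC6 was lowest with 22.6. The ATPases (4 of 6) and the assembly factors (2 of 3) had the largest share of MYC-bound genes, 66.7%, against 17.8% of other coding genes. With −log10 q of at least 5, 2 of 6 and 1 of 3 were left, against 12.7% of other coding genes. These shares rest on few genes, and the subcomplexes were not tested against each other.

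Of the 4 MYC peaks of ATPase genes, that at PSMC4 stood apart. It had a fold enrichment of 14.0 (−log10 q 24.4) with the summit 330 bp upstream of the TSS, and at 671 bp it was the widest MYC peak of any member. No CACGTG lay within 50 bp of its summit, and the sequence around it, on the plus strand in lower case throughout, is printed as the strongest MYC peak of the set without that motif.
PSMC4, MYC, chr19:40476692-40476792: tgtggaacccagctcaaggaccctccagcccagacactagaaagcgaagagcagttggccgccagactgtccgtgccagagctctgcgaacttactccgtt
PSMC2 had a MYC peak of 8.09 (−log10 q 9.23), 48 bp upstream of a TSS but 2777 bp upstream of the canonical one, in the window of the neighbouring gene DNAJC2. PSMC5 had 5.91 (−log10 q 4.2), in a window shared with FTSJ3, and PSMC3 had 5.01 (−log10 q 3.26). No ATPase gene had a Fra-1 peak.

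The non-ATPase subunits of the 19S cap build its scaffold, bind ubiquitin and hold the deubiquitinase PSMD14. All 11 genes had an E2F1 peak, with the highest median fold enrichment of any subcomplex, 39.2. The highest value was at PSMD2, a docking subunit for ubiquitin carriers, with 50.3 (−log10 q 128.0) and the summit 268 bp upstream of a TSS. PSMD12 with 44.3 and PSMD4, a ubiquitin receptor, with 44.2 followed, and PSMD3 was lowest with 15.3.

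The sequence at the PSMD2 summit is printed because it is the strongest E2F1 site of the members for which the 101 bases around the summit hold no UTR. Neither TTTCCCGC nor TTTGGCGC occurs in it.
PSMD2, E2F1, chr3:184016668-184016768, plus strand: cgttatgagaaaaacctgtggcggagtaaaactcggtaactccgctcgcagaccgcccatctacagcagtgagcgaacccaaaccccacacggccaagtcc

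MYC was found at 4 of the 11 non-ATPase genes, all with peaks of similar strength. PSMD7, which pairs with PSMD14 in the cap, had a fold enrichment of 7.82 (−log10 q 7.33), 141 bp downstream of a TSS in a coding exon. PSMD14 had 6.63 (−log10 q 4.81), and the scaffold subunit gene PSMD12 had 6.59 (−log10 q 6.12), 8 bp downstream of a TSS. PSMD8 had 5.91 (−log10 q 4.48). None of these 4 had CACGTG within 50 bp of the summit.

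Fra-1 was found at 3 non-ATPase genes, in different surroundings. At PSMD2 the stronger of its 2 Fra-1 peaks had a fold enrichment of 14.8 (−log10 q 37.8) and lay in an intron, 1276 bp downstream of the canonical TSS, with the TGAGTCA printed above 5 bp from the summit and an E2F1 peak of 14.2 whose summit was 14 bp away. The other, of 6.25, lay upstream of the TSS and overlapped the strong E2F1 peak at a summit gap of 37 bp. At PSMD14 the Fra-1 peak of 7.58 (−log10 q 7.76) lay 11 bp upstream of a TSS, with summit gaps of 25 bp to E2F1 and 59 bp to MYC. PSMD14 was thus the member at which all 3 factors peaked over 1 start site, each without its own motif within 50 bp of the summit. At PSMD1 the Fra-1 peak of 6.33 lay in an intron 105350 bp downstream of the canonical TSS, near an internal one.

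The assembly factors PSMD5, PSMD9 and PSMD10 are chaperones that help to build the ATPase ring and leave the finished proteasome. E2F1 was found at all 3, with a fold enrichment of 41.5 at PSMD5, 20.2 at PSMD9 and 13.1 at PSMD10. MYC was found at PSMD5, with 5.6 (−log10 q 3.79), and at PSMD9, with 14.8 (−log10 q 29.8). The MYC peak of PSMD9 was the second highest among members, and its window is shared with an unnamed coding gene.

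PSMD9 was the member at which each of the 3 factors had a peak with its own motif within 50 bp of the summit. Its CACGTG lay 7 bp from the MYC summit and its TTTGGCGC 26 bp from the E2F1 summit, and these summits were 125 bp apart. Its Fra-1 peak of 10.6 (−log10 q 14.2), with TGACTCA 25 bp from the summit, lay 5368 bp downstream of the canonical TSS in an intron, 5490 bp from the MYC summit. The 101 bases around the MYC summit are printed because they also hold 2 matches to TGACNNNGC, the core of the antioxidant response element bound by NFE2L1 and NFE2L2 with small MAF proteins, 1 on each side of CACGTG. Capitals mark the 3 matches, of which the first is on the opposite strand.
PSMD9, MYC, chr12:122326524-122326624, plus strand: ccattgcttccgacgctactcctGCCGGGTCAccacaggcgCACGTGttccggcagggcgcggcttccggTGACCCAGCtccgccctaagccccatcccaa

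The activators PSME1 to PSME4 open the core without ubiquitin, and PSMF1 encodes an inhibitor. All 5 had an E2F1 peak, highest at the nuclear activator PSME3 with a fold enrichment of 41.3 and lowest at PSME4 with 11.8, which was also the lowest of all E2F1-bound members. That strongest E2F1 peak of PSME3 lay at an upstream TSS, 9220 bp from the canonical one, and also in the window of BECN1, an opposite-strand neighbour whose canonical TSS is 9114 bp from that of PSME3. At the canonical TSS a second E2F1 peak of 37.1 shared its place with MYC.

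PSME3 had the strongest MYC peak of all members, with a fold enrichment of 21.3 (−log10 q 41.9), and it was the only member with 2 MYC peaks. The stronger lay 66 bp upstream of the TSS, 7 bp from the E2F1 summit, and the weaker, of 5.47 (−log10 q 3.92), 389 bp downstream of a TSS. Each had a CACGTG, 26 and 34 bp from the summit. Both MYC peaks also lay in the window of BECN1. PSME4 had no MYC peak but the strongest Fra-1 promoter peak of the members, 15.0 (−log10 q 39.1), in an intron 1305 bp downstream of a TSS. TGACTCA lay 18 bp from its summit, and no E2F1 peak overlapped it. This Fra-1 peak also lay in the window of ACYP2.

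Among genes with a peak, the median E2F1 strength was higher at proteasome promoters than elsewhere, that of MYC was slightly lower, and that of Fra-1 was nearly equal. The median fold enrichment of the strongest E2F1 peak was 35.8 in the 40 members and 22 in 12281 other genes. Of the 40, 31 (77.5%) lay above the median of the other genes, and 7 (17.5%) reached the level of their top 10%, 42.9. For MYC the medians were 6.63 in members and 7.22 in other genes, with 7 of 17 members above the latter. For Fra-1 they were 8.39 and 8.38. These orders depended on the peaks and start sites used. In lists of equal length, the E2F1 medians were 36.5 in members and 34.5 in other genes, so little of the gap in medians was left. Of the 31 members left there, 23 lay above the median of the other genes. Shortening by q keeps the peaks of highest significance in both sets. With −log10 q of at least 5, MYC stood at 8.09 in members and 8.01 in other genes, and with 1 canonical TSS per gene Fra-1 stood at 11.2 in 4 members and 7.59 in other genes.

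**Figure D3:**
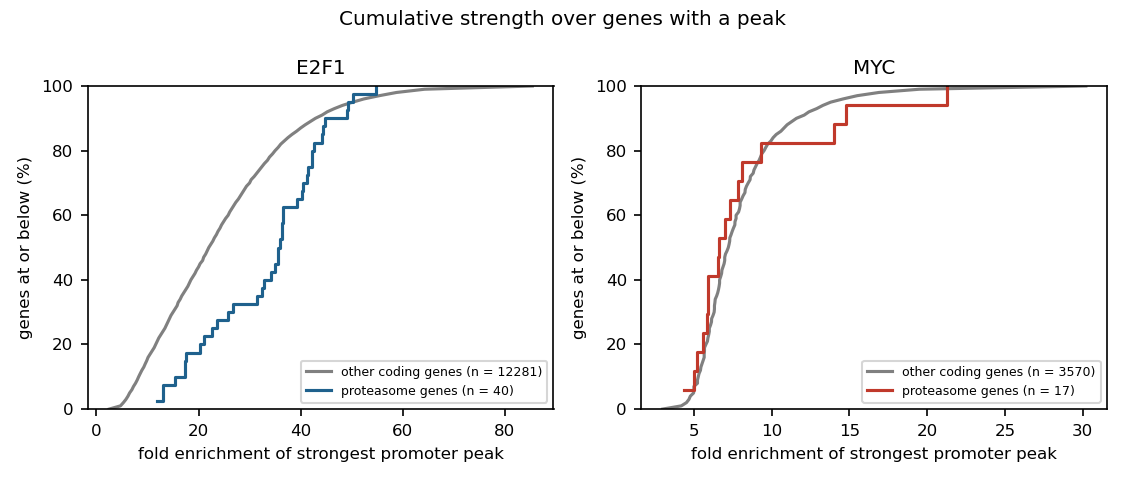
Cumulative share of genes (y axis, percent) at or below a given fold enrichment of the strongest promoter peak (x axis), for E2F1 on the left and MYC on the right, with proteasome genes as coloured steps and other coding genes in grey. The E2F1 curve of the proteasome genes lay to the right except at the upper end, with a median of 35.8 against 22, and the MYC curves ran together, with medians of 6.63 and 7.22.

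E2F1 was stronger where MYC was also present. In members the median E2F1 fold enrichment was 41.3 at the 17 genes with a MYC peak and 26.7 at the 23 without. The same order was seen in other genes, 32.0 with MYC and 18.5 without. All 18 MYC peaks of the members overlapped an E2F1 peak, as did 98.0% of MYC peaks of other genes, with a median gap between summits of 94 bp and a range from 7 to 614 bp. Of all 8 Fra-1 peaks in member windows, 3 overlapped an E2F1 promoter peak of the same gene, against 79.7% in other genes. Both counts include genes without an E2F1 peak, among members PSMB11. The member count rests on few peaks, and the difference was not tested.

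Member E2F1 summits sat close to start sites. The median distance from the nearest TSS was 30.5 bp in members and 91 bp in other genes, and 30 of 40 members (75.0%) had the summit within 100 bp, against 52.1%. All 40 lay within 500 bp, against 86.6%. E2F1 peaks were also wider, with a median of 822 bp against 614 bp. MYC summits lay a median of 66 bp from a TSS, against 127 bp, and Fra-1 summits 341 bp, against 524 bp. The order of Fra-1 turned with the start sites and window used, to 758 bp against 642 bp with 1 canonical TSS and 241 bp against 191 bp in windows of 1 kb to either side. Members had more annotated start sites, a median of 8 against 5, and the part of this in the distances was not tested beyond the use of 1 canonical TSS per gene, which gave a median E2F1 distance of 56.5 bp in members and 132 bp in other genes.

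**Figure D4:**
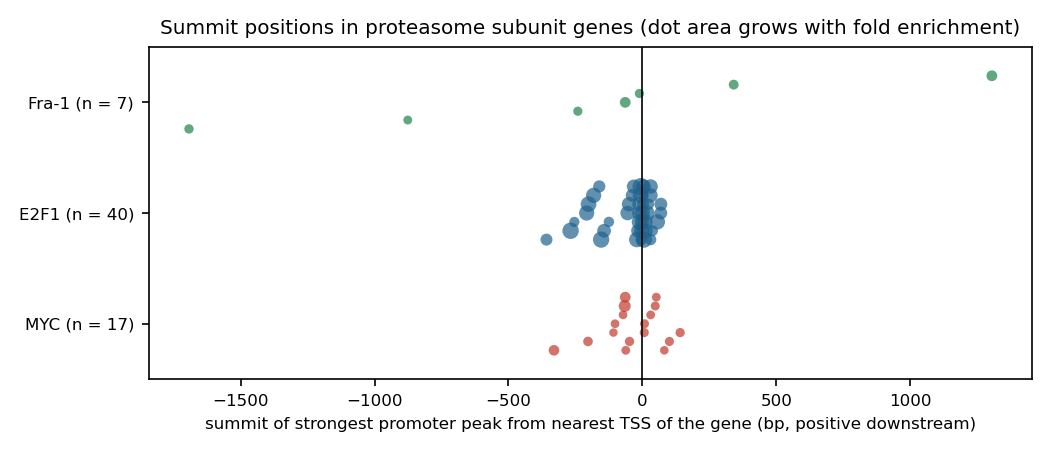
Position of the summit of the strongest promoter peak from the nearest TSS of the gene (x axis, bp, positive downstream) for each factor (y axis), 1 dot per proteasome gene, with vertical offsets within a factor for legibility and dot area growing with fold enrichment. E2F1 and MYC summits lay within 358 and 330 bp of a TSS, and Fra-1 summits spread from 1693 bp upstream to 1305 bp downstream.

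Head-to-head promoters were counted because such a promoter serves a pair of genes. Pairs were scored between canonical start sites, whereas peaks were counted at any start site. A coding gene started on the opposite strand within 1 kb upstream at 7 of 44 members (15.9%, against 9.26% of other genes), with the partners MRPL32 for PSMA2, SS18L1 for PSMA7, TAP1 for PSMB9, SIRT3 for PSMD13, ATG4A for PSMD10, RNF31 for PSME2 and ACYP2 for PSME4. None of these 7 had a MYC peak, whereas 17 of the other 37 (45.9%) had one. Among other coding genes the order was the reverse, 41.1% of genes with such a partner and 15.4% of genes without. The 0 of 7 depended on the definition. PSMB1, whose opposite-strand neighbour TBP starts 1062 bp away, had a MYC peak in a window shared with TBP. PSMC5, whose opposite-strand neighbour FTSJ3 starts 232 bp away but not upstream, had one in a window shared with FTSJ3. PSMC2 and PSME3 also had MYC peaks in windows of their opposite-strand neighbours, DNAJC2 and BECN1. The canonical start sites of these pairs lay 2876 and 9114 bp apart. Both members have further start sites upstream, at which pairs were not scored. The difference rests on 7 genes, 1 of them in the chromosome 6 stretch, and was not tested.

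The 300 bases from 250 before to 50 after the canonical TSS were searched on both strands. CACGTG was found in 3 member promoters, those of PSMB3, PSMD9 and PSME3 (6.82%, against 8.73% of all coding promoters), and TGACTCA in 1, that of PSMD9 (2.27%, against 3.59%). TTTCCCGC or TTTGGCGC was found in 5 (11.4%, against 3.07%), those of PSMA1, PSMB3, PSMD4, PSMD5 and PSMD9. TGACNNNGC, which can overlap TGACTCA, was found in 13 (29.5%, against 14.0%). The median GC content was 60.8% in all member promoters and 63.7% in all coding promoters. In promoters of other genes with an E2F1 peak it was 66.0%.

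Further genes of the pathway were taken as a list of 26 that act with the proteasome: proteins bound to the cap, chaperones of core and cap assembly, regulators of subunit transcription and carriers of substrates. All 26 had an E2F1 peak, 10 (38.5%) a MYC peak and 6 (23.1%) a Fra-1 peak, against 61.2%, 17.8% and 13.2% of coding genes outside the subunit set. The share with MYC was thus that of the subunit genes, and the median E2F1 fold enrichment, 23.6, was near that of other coding genes. MYC was found at 4 of 6 assembly chaperones, POMP (8.82), PSMG3 (5.67), PSMG4 (11.6) and PAAF1 (15.4), and POMP, which matures the beta ring, had an E2F1 value of 58.0, above every subunit gene.

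Peaks of all 3 factors were found at ADRM1 and NFE2L2, and at no gene of the list were all 3 absent. ADRM1, a ubiquitin receptor of the cap that the symbol rule does not reach, had a fold enrichment of 6.23 in the MYC list, 23 in the E2F1 list and 8.4 in the Fra-1 list. NFE2L2, which drives antioxidant genes, had values of 7.29, 33.3 and 7.39 in the same order. NFE2L1 had 10.6 for MYC and 30.1 for E2F1, without Fra-1. The genes set apart by name, PSMC3IP and PSME3IP1, had E2F1 peaks of 27.5 and 17.0 and none of MYC or Fra-1.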

How the data were processed

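Members and lists were chosen with earlier results of these data known. Per the study's methods and the file headers, the authors made each list by read trimming (Trimmomatic), alignment to hg19 with masking (Bowtie, reads with 1 match only), removal of duplicates and peak calling in each library (MACS2, q-value of 0.01, with 1 input library as control). Replicates were not pooled, since each factor had 1 library. The deposited values were the fragment pileup at the summit (a signal, scaled between libraries), its ratio to local background (fold enrichment), and −log10 p- and q-values. At most 1 tag per position was kept, which caps the pileup.

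Peaks were joined to GENCODE 44 start sites on GRCh37 in Python 3.11.15 with pandas 2.3.3, numpy 2.4.6 and pysam 0.24.0, by an overlap of at least 1 bp. A gene's strength was its highest fold enrichment. A motif counted if it lay on either strand no farther than 50 bp from a summit. The joins, distances and motif search were tested on simulated data, in which 300 of 300 planted peaks and 400 of 400 planted motifs were found. Named genes were members with MYC or Fra-1, members without E2F1, the member with the strongest E2F1 peak of each subcomplex, members with a motif at a summit, and pathway genes with all or no factors. Other members are named for context, chosen after their values were seen. Alternatives were a −log10 q or a fold enrichment of at least 5, lists of equal length, 1 canonical TSS, a window of 1 kb to either side, summits inside the window, a motif window of 100 bp and −log10 q as the measure of strength. No set test was run.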

Additional observations from a re-analysis of the deposited data

How the results depend on the processing

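Of 90 recomputed main values, 74 stayed the same by the rule used. Counts and medians had to stay within 1.5 times the first value, and motif shares within its 95% confidence interval. Of 150 values for subcomplexes and single measures, 131 stayed within 1.5 times. With −log10 q of at least 5, MYC fell to 9 members and all 3 factors to 1. With lists of equal length, Fra-1 fell to 2 members with a median fold enrichment of 14.9 and a summit distance of 684 bp (other genes 15.1 and 732 bp), all 3 factors to 0, the E2F1 distance to 19 bp (other genes 60 bp), and the subcomplexes with E2F1 at every member from 5 to 1. With 1 canonical TSS, the median distance of summits was 126 bp in the MYC, 56.5 bp in the E2F1 and 758 bp in the Fra-1 list (other genes 202, 132 and 642 bp), Fra-1 was left at 4 members (against 7.24% of other genes) and all 3 factors at 1. Overlap of all 3 peaks also left 1. Without peaks in windows of other coding genes, an alternative chosen after seeing the data, MYC was left at 11, E2F1 at 29 and all 3 factors at 1. For all 3 factors, 1 member is 2.27%, and the main share of other genes was 4.67%. That share was 3.11% under the stricter q, 0.868% in lists of equal length and 2.8% with 1 canonical TSS. It was 2.89% where all 3 peaks had to overlap and 3.21% without shared peaks. Each of these alternatives keeps fewer peaks, start sites or joint calls by construction. Other alternatives added later, with PSMC3IP and PSME3IP1 counted (E2F1 at 42 members) and without the chromosome 6 stretch, moved no count by over 1.5 times. Depth and 1 library per factor limit what an unlisted peak means: it was not detectable at this depth and cutoff.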
